A study of Mus musculus with 62 samples.

Results

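The genes described here encode the pore and auxiliary subunits of potassium channels and of voltage-gated sodium, calcium and HCN channels. They were chosen by symbol alone: every Kcn, Scn, Cacna, Cacnb, Cacng and Hcn gene of the table that follows the numbered naming scheme, with antisense names left out. Of 47643 symbols, 135 met the rule: 92 potassium, 13 sodium, 26 calcium and 4 HCN channel genes. A mean of at least 1 TPM (a transcript level per length, scaled to a total of 1000000 per library) over all libraries was needed for testing, and 92 of the 135 reached it: 60 potassium, 6 sodium, 22 calcium and 4 HCN genes. The remaining 43 were not tested. Scn2a1, the older symbol of a brain sodium channel pore, fell outside the naming rule. It was chosen for mention after its values were seen, with 153 ± 11.1 TPM in CAC and 151 ± 9.06 in mock at 8 weeks.

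The series examined the cerebellum in tumour cachexia, a loss of body mass, with 62 bulk RNA-seq libraries. Mice were injected with melanoma cells of a cachectic kind (CAC) or of a kind that is not cachectic (NCAC), or were mock injected, and the cerebellum was taken 2, 4, 6 or 8 weeks later. CAC at 8 weeks had 7 libraries and the other 11 groups had 5 each. The animals of every group were given as female and 2 months old. Whether that age is at injection or at collection is not settled here, so age may differ between weeks. The strain is given as C57BL6/J with the samples and as NCI Ath/nude, an immunodeficient mouse, in the design text, so it is not settled here. The extraction protocol speaks instead of an LLC cell injection and of a time of 3 weeks, which matches no group; cells and weeks are given here as in the sample descriptions. The labels name no animal for any library, so p-values measure the spread between these libraries, which may be technical.

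Ion channels let selected ions cross the membrane along their gradients and so set the excitability of neurons and glia. Voltage-gated sodium and calcium channels depolarize the cell, the many potassium channels repolarize it or hold its resting potential, and HCN channels carry a current that opens on hyperpolarization. In the cerebellum, P/Q-type calcium channels and fast Kv3 potassium channels serve Purkinje and granule cells, whereas inward-rectifier channels of glia clear potassium. Each pore subunit works with auxiliary subunits that alter its gating or carry it to the membrane.

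TPM keeps no sequencing depth, so the depth of the libraries is unknown. Pairwise correlations of log2(TPM + 1) between libraries lay between 0.975 and 0.995, and 0 pairs were identical. The 12 Purkinje and 11 granule cell markers examined all passed the filter, as fits the tissue label, while 8 brainstem markers together stayed between 0.782 and 19.0 TPM over all libraries. Summed forebrain markers ran from 152 to 239 TPM, of which Ppp1r1b made up a mean of 175, and skeletal muscle markers from 5.51 to 106 TPM. Ppp1r1b was the 1 forebrain marker of 3 tested that was called in CAC against mock at 8 weeks (log2 fold change 0.30, adjusted p = 0.000329), and its part in the results was not tested. The choroid plexus transcript Ttr varied from 4.34 to 6863 TPM between libraries. CAC replicate 3 at 8 weeks stood apart from the other 6 libraries of its group in several members, and calls of named members that it ended or made are given with and without it.

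The promoters of 3 members called at 8 weeks are shown first, 1 that rose (Cacna1i) and 2 that fell (Hcn2 and Kcnj10), from among those whose RefSeq start lies at the GENCODE gene boundary. Each line gives the 250 bases upstream of the start on the plus strand, from RefSeq on GRCm38.p6, with CpG dinucleotides in capitals. The windows are chr10:79716384-79716633 for Hcn2, chr15:80286988-80287237 for Cacna1i and chr1:172340960-172341209 for Kcnj10.
Hcn2: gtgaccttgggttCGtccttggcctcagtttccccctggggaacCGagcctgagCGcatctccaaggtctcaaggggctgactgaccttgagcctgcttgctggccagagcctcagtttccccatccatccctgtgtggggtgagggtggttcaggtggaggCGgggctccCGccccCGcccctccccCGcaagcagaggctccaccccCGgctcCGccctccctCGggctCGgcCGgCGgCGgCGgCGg
Cacna1i: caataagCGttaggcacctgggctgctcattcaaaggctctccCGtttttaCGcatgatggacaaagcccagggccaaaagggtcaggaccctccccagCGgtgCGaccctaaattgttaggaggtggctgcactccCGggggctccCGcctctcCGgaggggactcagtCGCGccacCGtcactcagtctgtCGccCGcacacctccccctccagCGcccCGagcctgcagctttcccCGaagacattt
Kcnj10: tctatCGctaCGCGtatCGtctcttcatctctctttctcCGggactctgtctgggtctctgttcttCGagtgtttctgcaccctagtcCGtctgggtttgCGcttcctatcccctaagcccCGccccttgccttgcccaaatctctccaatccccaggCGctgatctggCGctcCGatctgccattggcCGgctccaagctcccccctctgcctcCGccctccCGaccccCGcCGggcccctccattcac
These windows held 16, 16 and 17 CpG, and 70.4%, 62.4% and 62% of their bases were G or C. Over windows from 250 bases before to 50 after the start, the median G and C content was 58.3% for 133 windows of 98 members and 52.7% for 32851 windows of all genes. The NF-Y box CCAAT, searched on both strands, was present in 28.6% of member windows, 35% of the windows of called members and 37.4% of all windows. Kcnj10 held it at bases 147 and 184 of its window. The core ACANNNTGT of the glucocorticoid receptor element was present in 4.51% of member windows and 6.85% of all windows, the E-box CACGTG in 5.26% and 7.15%, and the letters TATAAA in 4.51% and 13.6%. The cAMP response element TGACGTCA was in 0% of member windows and 1.79% of all windows. Each of these 5 motifs was searched on both strands and counted on its own, so matches may overlap, and a match describes the letters only.

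Among sodium channel subunits, the auxiliary gene Scn2b had a mean of 302 TPM over all 62 libraries, and the pores Scn8a and Scn1a had 99.6 and 88.1. Among potassium channels the fast-spiking Kv3 pore Kcnc1 stood at 285 TPM. Kcnj10, the inward rectifier of astrocytes and oligodendrocytes, had 268. Cacng7, which belongs to the regulatory proteins of AMPA receptors as well as to the calcium channel gamma family, had 390 TPM. The auxiliary subunit Cacnb4 had 193 and the P/Q-type pore Cacna1a 161. Of the HCN genes, Hcn2 was at 120 TPM, Hcn3 at 6.42 and Hcn4 at 3.58.

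The summed level of all 135 members was 7266 ± 171 TPM (SD, n = 62), with potassium at 3925 ± 86.0, sodium at 1644 ± 68.2, calcium at 1532 ± 46.5 and HCN at 166 ± 15.9. At the low end, Kcnk16 was at 0 in 61 of 62 libraries, Kcnmb3 in 59, and Scn10a and Kcnj1 in 52 each. These are channels known from pancreas, sensory neurons or kidney, as far as Kcnk16, Scn10a and Kcnj1 go. Spread over libraries was smallest for Scn8a, with a coefficient of variation of 4.01%, against a median of 9.95% over the tested members. It was largest for Kcne2 (85.0%) and Kcnj13 (47.0%), both genes of the choroid plexus.

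**Figure D1:**
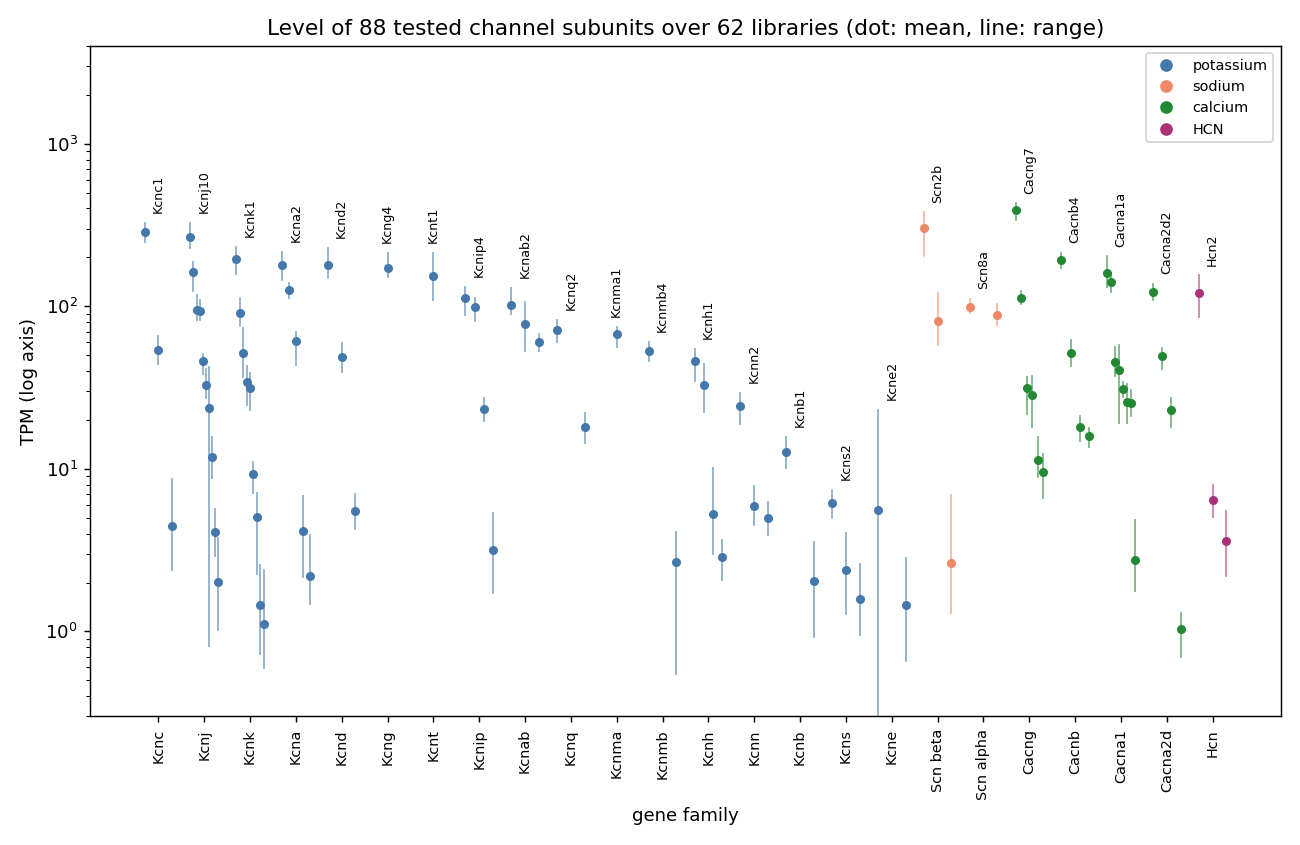
Level of 88 tested subunits in TPM on a log axis, grouped by gene family on the horizontal axis. Dots are means over 62 libraries and lines run from the lowest to the highest library; Cacng7 (390 TPM) and Scn2b (302 TPM) have the highest means of those drawn, and Kcnj13 and Kcne2 have the longest lines.

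The main question was how these genes stood in the cerebellum of CAC mice against mock at 8 weeks, the last stage sampled. Of the 92 tested members, 12 rose and 9 fell (22.8%), beside 20.8% of all 14399 genes tested (13.4% up and 7.34% down). The members' share was near that background, so the count alone sets the members apart in no way. The median log2 fold change was -0.01 over the members and 0.02 over all genes. In bulk tissue, fewer cells of a type and less RNA per cell cannot be told apart. By class, 5 potassium genes rose and 5 fell of 60, 6 calcium genes rose and 3 fell of 22, 1 sodium gene rose of 6 and 1 HCN gene fell of 4.

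**Figure D2:**
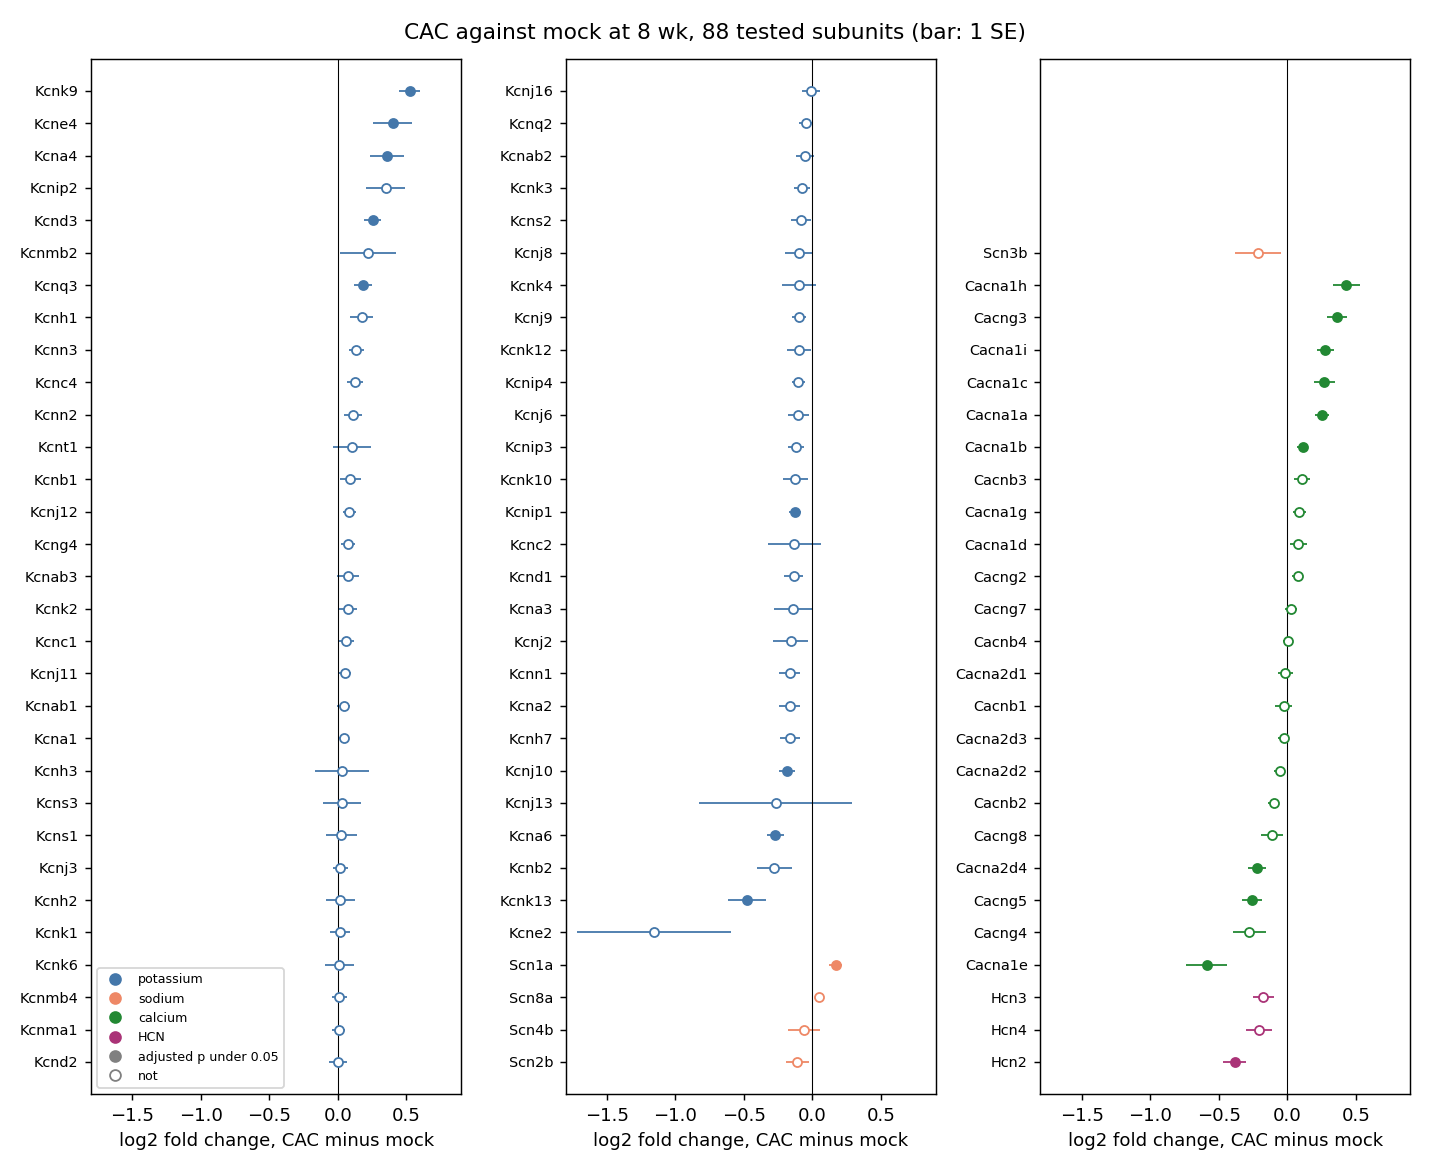
Log2 fold change of CAC minus mock at 8 weeks for 88 tested subunits, with bars of 1 SE, coloured by class and filled where the adjusted p was under 0.05. The 20 filled points run from Cacna1e at -0.59 to Kcnk9 at 0.52, and Kcne2, at -1.16, is not filled.

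Among 8 tested Cacna1 genes, the calcium channel pores that carry the ion, 5 rose and 1 fell, with a median log2 fold change of 0.18. Of all genes 20.8% were called, and no test compared the pores with other families. Cacna1a, the P/Q-type pore of Purkinje cells and of many presynaptic terminals, ran from 157 to 181 TPM with a median of 176 in the 7 CAC libraries. In mock it was at 131, 161, 140, 140 and 152 TPM, so only the lowest CAC library, replicate 3, lay inside the mock range. Cacna1a rose by 0.25 on the log2 scale (SE 0.0503, limma adjusted p = 0.000249), to 173 ± 8.68 TPM (SD, n = 7) from 145 ± 11.7 (SD, n = 5).

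The T-type pores open near the resting potential and shape rebound firing. Cacna1h ran from 2.39 to 4.83 TPM in CAC with a median of 3.63, and was at 2.63, 2.27, 2.29, 2.36 and 2.50 in mock. CAC replicate 3, at 2.39, was the only CAC library inside the mock range. The difference was 0.43 (SE 0.0985, adjusted p = 0.00125) and 0.50 without that replicate. Cacna1i, another T-type pore, ran from 47.5 to 56.2 TPM in CAC with a median of 50.1, against 37.0, 48.0, 40.3, 40.2 and 48.7 in mock. Only the lowest CAC library, replicate 1, lay inside the mock range, and Cacna1i rose by 0.28 (SE 0.064, adjusted p = 0.00125). Cacna1g, the T-type pore with the highest level at a mean of 141 TPM over all libraries, was not called.

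Cacna1c, an L-type pore, ran from 25.9 to 28.0 TPM in CAC with a median of 26.8, all above the mock libraries at 19.2, 25.4, 21.6, 19.6 and 25.8. It rose by 0.27 (SE 0.076, adjusted p = 0.00793), and the call was lost without mock replicate 1 (adjusted p = 0.0503). NCAC, at 20.1 to 28.3 TPM, overlapped CAC for Cacna1c. Cacna1b, the N-type presynaptic pore, rose by 0.11 (SE 0.0394, adjusted p = 0.0314), from 29.3 ± 1.38 TPM in mock to 31.8 ± 1.00 in CAC. That small change was lost in 9 of 22 alternative fits, among them those without CAC replicates 5 and 6 or mock replicates 1 and 4, each in turn (adjusted p from 0.0513 to 0.107) and all 3 other scalings.

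Cacna1e, the R-type pore, went the other way. It was at 20.8, 23.8, 44.3, 27.3, 24.9, 19.7 and 22.0 TPM in the 7 CAC libraries and at 35.3, 43.4, 38.7, 33.5 and 42.1 in mock. The 6 CAC libraries other than replicate 3 lay below every mock library, whereas replicate 3, at 44.3, lay above all of them. Cacna1e fell by 0.59 (SE 0.147, adjusted p = 0.00294), and by 0.72 without CAC replicate 3 (adjusted p = 8.08e-05).

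Auxiliary subunits alter the gating and transport of the calcium channel pores. None of the 4 Cacnb genes passed the test, among them Cacnb4, whose log2 fold change was 0.01 and turned negative under each of 3 other scalings. Cacng7, with the highest level of the class, had a log2 fold change of 0.03 (adjusted p = 0.689), which was -0.01 with mitochondrially encoded genes removed. Cacng3, a gamma subunit that also regulates AMPA receptors, ran from 11.1 to 14.5 TPM in CAC with a median of 13.4, above mock at 9.98, 10.5, 9.78, 9.69 and 10.5. It rose by 0.36 (SE 0.0735, adjusted p = 0.000334), with no overlap with mock or with NCAC.

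Cacng5, a further member of that gamma group, ran from 21.7 to 32.1 TPM in CAC with a median of 26.0, overlapping mock at 29.0, 31.5, 33.1, 32.9 and 32.7. It fell by 0.26 (SE 0.0727, adjusted p = 0.00856), a call lost in the fit of the compared groups alone (adjusted p = 0.0624). Cacna2d4, an auxiliary subunit best known from the retina, had the lowest mean of the tested members, 1.03 TPM. It fell by 0.22 (SE 0.0646, adjusted p = 0.0113), from 1.13 ± 0.125 TPM in mock to 0.828 ± 0.109 in CAC. The call was lost in the compared groups alone (0.0975) and under a replicate block (0.0698).

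Among potassium channels, the leak channel Kcnk9 (TASK-3), which is abundant in granule cells and holds the resting potential, had the smallest adjusted p. Its 7 CAC libraries were at 69.3, 73.4, 64.2, 65.3, 57.3, 57.6 and 51.4 TPM, and mock was at 42.0, 47.1, 37.0, 46.4 and 43.1. Every CAC library exceeded every mock and every NCAC library. Kcnk9 rose by 0.52 on the log2 scale (SE 0.0784, adjusted p = 5.63e-06), a 1.44-fold change. The 11 granule cell markers had 1 call in each direction (Reln up, Slc17a7 down) with a median log2 fold change of 0.07, and their sum was between 5354 and 6478 TPM in CAC and between 5562 and 6686 in mock. The part of granule cell abundance in the Kcnk9 difference was not tested.

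Kcnk13 (THIK-1), a leak channel known from microglia, ran from 2.25 to 5.31 TPM in CAC with a median of 3.51, and stood at 7.11, 5.68, 5.35, 4.62 and 3.85 in mock. The groups overlapped, and Kcnk13 fell by 0.48 (SE 0.138, adjusted p = 0.0101). This call was lost without mock replicate 1 (adjusted p = 0.0636), in the compared groups alone (0.0691) and under a replicate block (0.113). Against mock, 4 of 11 microglial markers fell and 0 rose, with a median of -0.29. Against NCAC at 8 weeks, 2 of the 11 were higher in CAC and 0 lower (median 0.05), whereas Kcnk13 had a median of 4.83 TPM in NCAC. In NCAC against mock, 0 of these markers were called, with a median of -0.34. The summed level of the markers was between 224 and 292 TPM in CAC, 192 and 232 in NCAC, and 222 and 437 in mock. Their part in the Kcnk13 difference was not tested.

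Of the voltage-gated Kv1 pores, Kcna6 fell and Kcna4 rose. Kcna6 ran from 43.7 to 64.3 TPM in CAC with a median of 52.5, against 64.1, 66.2, 64.6, 69.2 and 61.1 in mock. CAC replicate 3, at 64.3, was the only CAC library within the mock range. The difference was -0.27 (SE 0.0602, adjusted p = 0.000867), and -0.31 without that replicate. Kcna4, a fast-inactivating pore at low level, ran from 1.76 to 3.94 TPM in CAC with a median of 3.05, against 2.11, 2.06, 1.95, 1.76 and 1.93 in mock. It rose by 0.36 (SE 0.123, adjusted p = 0.0294). That call was lost in 9 of 21 alternative fits, including those without CAC replicates 1, 4, 6 and 7 or mock replicates 3, 4 and 5, each in turn (adjusted p from 0.0501 to 0.0829). Kcna1 and Kcna2, the most abundant Kv1 pores with means of 125 and 180 TPM over all libraries, were not called.

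Kcna5, a Kv1 pore known from heart and blood vessels, missed the minimum level with a mean of 0.963 TPM over all libraries. It is named here after its values were seen. It ran from 1.39 to 2.14 TPM in CAC at 8 weeks with a median of 1.90, and was at 0.429, 0.394, 0.607, 0.799 and 0.902 in mock. Every CAC library was above every mock and every NCAC library, the latter between 0.347 and 0.946. In the fit without a filter Kcna5 was higher than mock by 0.82 (SE 0.172, adjusted p = 0.000836). That fit called 11.9% of all 24519 genes in it, those above the minimum included. The share among genes under the minimum alone was not counted, so the members under it have no like background here. Of these 43 members, 3 were called, Kcna5 among them. The other two were lower in CAC: Kcnv2, a silent subunit known from photoreceptors, by a log2 difference of -0.33 (adjusted p = 8.59e-05), and Kcnmb1, the BK subunit of smooth muscle, by -0.38 (adjusted p = 0.00391). Both stayed at or below 1.32 TPM in these groups.

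The Kv4 pore Kcnd3, which carries a transient current below the firing threshold, ran from 51.4 to 59.6 TPM in CAC with a median of 53.2. NCAC ran from 44.5 to 59.2 TPM and overlapped CAC, and Kcnd3 was not called between them. All CAC libraries lay above mock at 40.2, 45.6, 44.1, 48.3 and 48.8, and Kcnd3 rose by 0.25 against mock (SE 0.0624, adjusted p = 0.00244). Its partner Kcnip1, a calcium-binding subunit of Kv4 channels, fell by 0.13 (SE 0.0441, adjusted p = 0.0298), from 24.5 ± 0.525 TPM in mock to 22.4 ± 1.72 in CAC. The Kcnip1 call was lost in 8 of 22 alternative fits, including those without CAC replicates 3, 6 and 7 or mock replicates 2, 3 and 4, each in turn (adjusted p from 0.0514 to 0.0846).

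The Kv7 pores carry a slow current that restrains repetitive firing. Of these, Kcnq3 ran from 16.0 to 22.0 TPM in CAC with a median of 20.4, overlapping mock at 15.8, 18.5, 17.9, 15.6 and 19.3. Kcnq3 rose by 0.18 (SE 0.0657, adjusted p = 0.0405), from 17.4 ± 1.66 to 19.9 ± 2.14 TPM. This call was lost in 13 of 22 alternative fits, among them all 3 other scalings and those without CAC replicates 1, 2, 4 and 6 or mock replicates 1, 3 and 4, each in turn (adjusted p from 0.0564 to 0.142).

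Of the 10 tested inward rectifiers, 1 was called. Kcnj10, which lets glia take up potassium, ran from 227 to 262 TPM in CAC with a median of 255, all below mock at 310, 273, 299.6, 265 and 266. It fell by 0.19 (SE 0.0597, adjusted p = 0.0194). This call was lost without CAC replicate 6, mock replicate 1 or mock replicate 3 (adjusted p from 0.0534 to 0.0889) and under a replicate block (0.140). NCAC, at 242 to 278 TPM, overlapped CAC, and Kcnj10 was not called between them. Markers of the glia that use this channel also moved. Of 12 oligodendrocyte markers 10 fell and 0 rose, and of 12 astrocyte and Bergmann glia markers 4 rose and 2 fell. Summed oligodendrocyte markers were between 2089 and 2632 TPM in CAC, 2670 and 3033 in NCAC, and 2554 and 3468 in mock. Summed astrocyte markers were between 3210 and 3806 TPM in CAC, 2945 and 3325 in NCAC, and 2987 and 3109 in mock. Their part in the Kcnj10 difference was not tested.

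Kcne4, a small subunit that alters other potassium channels, ran from 1.36 to 2.23 TPM in CAC with a median of 1.76 and overlapped mock at 0.826, 0.850, 0.654, 1.58 and 1.70. It rose by 0.40 (SE 0.141, adjusted p = 0.0359), a call lost in 9 of 21 alternative fits, including those without CAC replicates 2, 4 and 7 or mock replicates 1, 2 and 3, each in turn (adjusted p from 0.05004 to 0.147). Kcnc1, a fast Kv3 pore, was at 0.06 on the log2 scale (adjusted p = 0.464).

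Scn1a was the sodium channel gene that changed. This pore, which is mutated in Dravet syndrome, ran from 86.5 to 104 TPM in CAC with a median of 98.4, and was at 83.8, 85.4, 84.2, 87.6 and 89.3 in mock. The lowest CAC library, replicate 3, was the only one inside the mock range. Scn1a rose by 0.17 (SE 0.0466, adjusted p = 0.00665), a call lost under a replicate block (0.0502). On the log2 scale Scn8a was at 0.05 (adjusted p = 0.253), and Scn2b was at -0.11 (adjusted p = 0.392).

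Hcn2, the most abundant HCN pore, ran from 86.2 to 129 TPM in CAC with a median of 99.3, against 155, 130, 135, 125 and 122 in mock. Replicate 3, at 129, was again the only CAC library within the mock range. Hcn2 fell by 0.38 (SE 0.0835, adjusted p = 0.000759), and by 0.44 without that replicate. For Hcn3 the log2 fold change was -0.17 (adjusted p = 0.0852), which did not pass. It passed in 6 of 22 alternative fits, among them those without CAC replicate 3 (-0.21, adjusted p = 0.0280) or CAC replicate 5 (-0.22, adjusted p = 0.0198), all 3 other scalings and sample weights. The summed HCN level was 145 ± 15.5 TPM in CAC (SD, n = 7), and with n = 5 it was 179 ± 13.0 for mock and 170 ± 8.81 for NCAC.

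**Figure D3:**
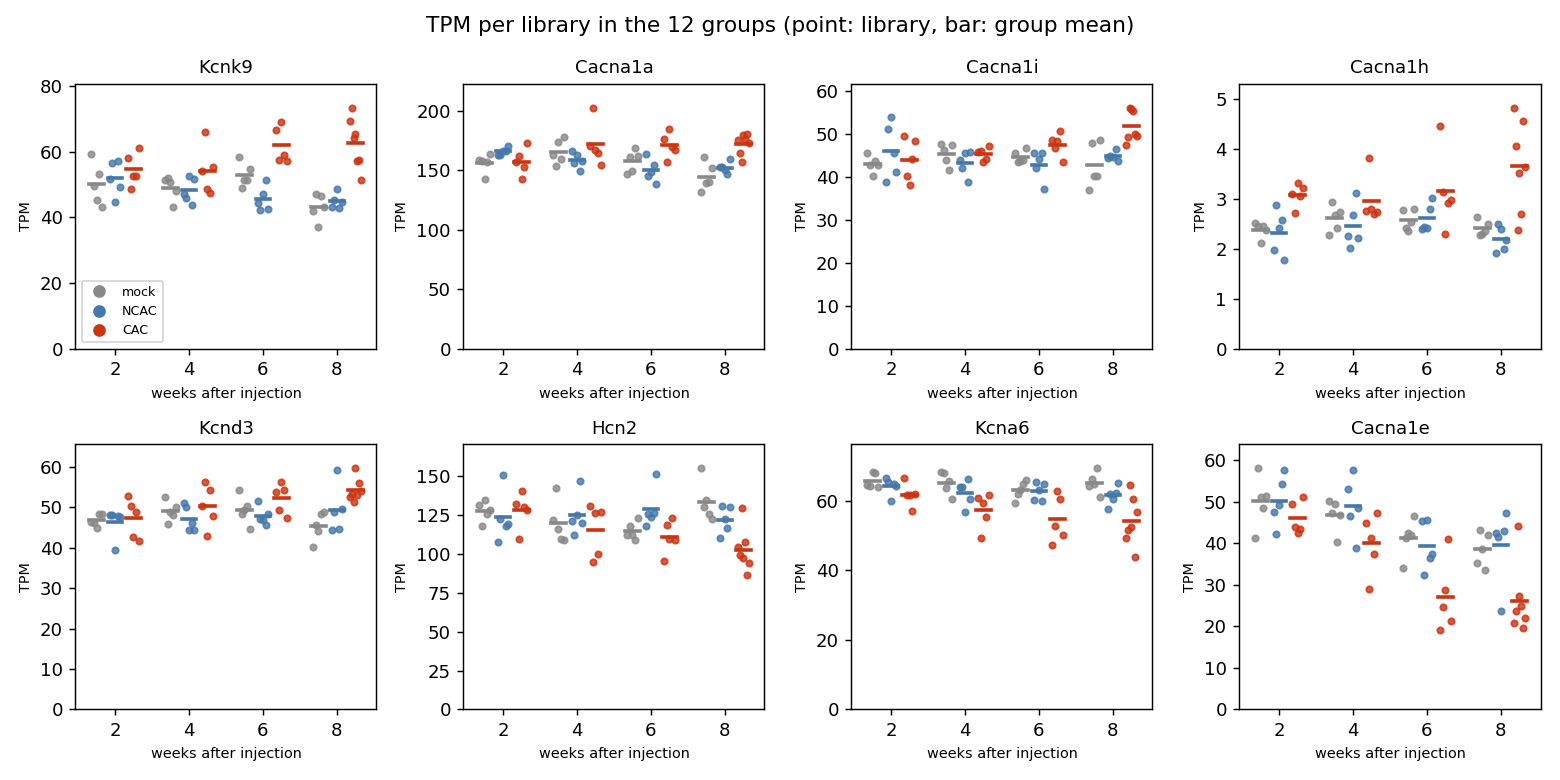
TPM of 8 subunits in every library by week after injection, with mock in grey, NCAC in blue and CAC in red, and bars for group means. At 8 weeks Kcnk9 is at 51.4 TPM or more in every CAC library and at 48.6 or less in every NCAC and mock library, while in Cacna1e, Hcn2 and Kcna6 CAC replicate 3 sits among or above the mock libraries.

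Between CAC and mock at 8 weeks, 5 of the 21 called members had groups that did not overlap (Kcnk9, Cacng3, Kcnd3, Cacna1c and Kcnj10). Of these, Kcnk9 and Cacng3 were also apart from NCAC, whereas Kcnd3, Cacna1c and Kcnj10 overlapped it. Of the 21, 3 were apart from NCAC and 2 from both groups. The 21 members were called in the comparison with mock, and overlap was not counted over all genes, so these counts have no background beside them. CAC replicate 3 lay inside the mock range for 8 of the 21 members, whereas each of the other 6 CAC libraries did so for 1 to 4. Once replicate 3 was set aside, 11 members did not overlap mock. It was picked after its values were seen, and leaving out a library cannot lower that count. No other library was set aside for it. Without CAC replicate 3, 24 members were called, 20 of them among the 21. Calls over all 14399 genes also went up in that fit, from 2990 to 3521. Sgk1, a kinase that regulates several channels and transporters, was at 63.7 TPM in that library and between 83.1 and 124 in the other CAC libraries.

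Scaling moved the balance of directions. Median-of-ratios scaling gave 10 members up and 13 down, quantile normalization 10 and 14, and removal of the mitochondrially encoded genes 10 and 16, against 12 and 9 as reported. Of all calls over the 14399 genes, 64.6% were upward as reported, and 49.4%, 47.0% and 41.7% under these scalings. Kcnk9, Cacna1a, Cacng3, Hcn2, Kcna6, Cacna1h, Cacna1i, Kcnd3 and Cacna1e kept their calls in every alternative fit in which they were tested.

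The called genes are spread over the genome. In GENCODE M21 on GRCm38, Kcnk9 lies on the minus strand at chr15:72501089-72546340 and Cacna1i on the plus strand of the same chromosome at chr15:80287238-80398279. Cacna1a lies at chr8:84388440-84640246 (plus), Cacna1h at chr17:25374285-25433783 (minus) and Hcn2 at chr10:79716634-79736108 (plus). Cacna1e (minus) and Kcnj10 (plus) share a chromosome, at chr1:154390731-154884501 and chr1:172341210-172374085. Reads of some called genes could be shared with a neighbour. Cacna1a, Kcna6 and Kcnd3 overlap an antisense gene by 435, 2355 and 165 bases in GENCODE M21, and Cacna1h overlaps Tpsg1 by 158 bases, in each case on the opposite strand. Libraries were made with a stranded kit, but whether strand was used in counting is not given in the sources used here.

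Channel partners, a list of 32 genes that anchor, traffic or regulate these channels, had 2 genes up and 5 down of 29 tested (24.1%, median log2 fold change 0.00 to the second decimal), near the 20.8% of all genes. Sgk1 rose by 1.21 (SE 0.193, adjusted p = 1.33e-05), to 98.4 ± 21.009 TPM in CAC from 41.1 ± 2.66 in mock, and every CAC library was above every mock library. Fgf11, a member of the intracellular FGF family that binds sodium channels, fell by 0.31 (SE 0.0695, adjusted p = 0.000835). Calm3, 1 of the calmodulin genes, fell by 0.15 (adjusted p = 0.00195). Lrrc55, an auxiliary subunit of BK potassium channels, fell by 0.40 (adjusted p = 0.00363). Rrad, a small GTPase that inhibits calcium channels, fell by 0.59 (adjusted p = 0.00902), a call lost under a replicate block (0.0628). Dpp10, an auxiliary subunit of Kv4 channels, fell by 0.12 (adjusted p = 0.0192), a call lost in 4 of 22 alternative fits, among them those without CAC replicate 6 or mock replicate 4 (adjusted p from 0.0687 to 0.0698).

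Ion pumps and transporters, which build the gradients the channels use, had 2 genes up and 4 down of 22 (27.3%), beside 20.8% of all genes. Slc24a3, a potassium-dependent sodium-calcium exchanger, rose by 0.18 (SE 0.0443, adjusted p = 0.00208). Calls of 4 further genes were lost without single libraries. Fxyd6, a modulator of the sodium pump, rose by 0.32 (adjusted p = 0.0196), a call lost without mock replicate 2 or 3 (adjusted p 0.0523 and 0.0593). Atp1b3 fell by 0.09 (adjusted p = 0.0256), Slc12a5, the chloride extruder of neurons, by 0.12 (adjusted p = 0.0281), and Atp1b1 by 0.07 (adjusted p = 0.0394). Those 3 calls were lost in 6, 8 and 10 of 22 alternative fits. The libraries that ended them were CAC replicates 1, 2 and 6 and mock replicates 3 and 4 for Atp1b3 (adjusted p from 0.0587 to 0.107), CAC 1 and 6 and mock 1 to 4 for Slc12a5 (0.0514 to 0.0993), and CAC 2, 3 and 6 and mock 1 to 4 for Atp1b1 (0.0544 to 0.156).

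A second question was whether the NCAC tumour gave the same picture. Against mock, 0 of the 92 members were called in NCAC at 2, 4, 6 or 8 weeks or averaged over the 4 weeks (limma). At an unadjusted p under 0.05 the counts were 7, 4, 11 and 9 by week and 2 for the average. Over all genes 2 were called at 2 weeks (0.0139%) and 0 in each of the other 4 comparisons (0%). At 8 weeks the log2 fold change against mock was 0.06 for Kcnk9, -0.13 for Hcn2 and 0.00 for Cacna1e in NCAC.

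The direct comparison of CAC with NCAC at 8 weeks called 19 of 92 members (20.7%), 10 higher and 9 lower in CAC, beside 11.8% of all genes (7.76% higher and 4.01% lower). This comparison and the one with mock share the CAC libraries, so their calls are not independent. Kcnk9 was higher by 0.46 (SE 0.0784, adjusted p = 7.78e-05), with NCAC at 43.3, 45.4, 48.6, 42.9 and 44.6 TPM. Cacna1h was higher by 0.52 (SE 0.0985, adjusted p = 0.000315), Cacng3 by 0.35 (adjusted p = 0.00108) and Kcnq3 by 0.31 (adjusted p = 0.00120). Cacna1e was lower by a log2 difference of -0.59 (SE 0.147, adjusted p = 0.00496), with NCAC at 42.5, 41.5, 23.7, 43.1 and 47.3 TPM. NCAC replicate 3 lay within the range of the low CAC libraries, and without it the difference was -0.76. The Cacna1e call was lost in the compared groups alone (0.0957) and under a replicate block (0.0564).

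Members that were called against NCAC and not against mock included Kcnc4, a Kv3 pore, Kcnn3, a calcium-activated potassium channel, Kcnb2, a delayed rectifier, and Kcnk3, the relative of Kcnk9 known as TASK-1. Kcnc4 was at 51.5 ± 3.51 TPM in NCAC and 60.4 ± 3.73 in CAC (log2 difference 0.23, adjusted p = 0.00566), with mock between them at 55.2 ± 2.77. Kcnn3 was higher in CAC by 0.21 (adjusted p = 0.00674, lost in the compared groups alone at 0.0610). Kcnb2 differed by -0.47 (adjusted p = 0.00898). The Kcnb2 call was lost in 3 of 21 alternative fits (adjusted p from 0.0533 to 0.0679), among them the one without NCAC replicate 4 (0.0548). Cacng5, called against mock too, differed by -0.30 (adjusted p = 0.00470), a call lost in the compared groups alone (0.0708). Scn1a differed by 0.17 (adjusted p = 0.0123). That call was lost in 4 of 22 alternative fits (adjusted p from 0.0545 to 0.0848), among them the one without NCAC replicate 2 (0.0580).

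The other 9 calls had larger adjusted p-values, and Kcnk3 is named from among them after its values were seen. Kcnk3 was at 98.2 ± 7.76 TPM in NCAC, 88.9 ± 6.15 in mock and 84.3 ± 5.46 in CAC (log2 difference -0.22, adjusted p = 0.0139). Mock lay between the tumour groups, and neither tumour group differed from mock past the threshold. By scaling, the 19 calls became 10 higher and 12 lower with median-of-ratios scaling or quantile normalization, and 9 and 14 with mitochondrially encoded genes removed.

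The earlier weeks held few calls. Against mock, 0 of 92 members were called in CAC at 2 or 4 weeks (limma; 7 and 3 at an unadjusted p under 0.05), beside 0% and 0.00694% of all genes. At 6 weeks 2 members fell (2.17%), beside 1.72% of all genes (1.41% up and 0.313% down). Kcnip4, a calcium-binding partner of Kv4 channels, was at 88.5, 93.3, 103, 107 and 100.5 TPM in CAC and at 116, 110, 128, 106 and 131 in mock. It fell by 0.26 (SE 0.0513, adjusted p = 0.00431), with 1 mock library (106) inside the CAC range. Cacna1e was at 19.2, 24.8, 28.8, 41.0 and 21.3 TPM in CAC and at 34.1, 41.3, 42.5, 42.0 and 46.7 in mock. It fell by 0.64 (SE 0.159, adjusted p = 0.0257), with 4 of 5 CAC libraries below every mock library.

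Both calls at 6 weeks were lost without CAC replicate 1 (adjusted p 0.0643 and 0.178) and in the fit of the compared groups alone (0.143 for both). Leaving out CAC replicate 2 or 5, or any of mock replicates 2 to 5, also ended the Cacna1e call (adjusted p from 0.0512 to 0.178 over these and CAC replicate 1). Against NCAC at 6 weeks, 4 members were higher and 3 lower (7.61%, beside 9.45% of all genes, 7.47% up and 1.99% down). Kcnk9 was higher by 0.43 (SE 0.0847, adjusted p = 0.00221) and Scn1a by 0.21 (adjusted p = 0.00938), and these 2 calls held in every alternative fit. Cacna1a was higher by 0.19 (adjusted p = 0.0222) and Kcnn3 by 0.19 (adjusted p = 0.0313), whereas Kcnip4 (-0.19, adjusted p = 0.0164), Cacna1e (-0.57, 0.0200) and Kcna6 (-0.20, 0.0410) were lower.

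Those 5 calls were lost in 2 to 11 alternative fits each, always including the one without CAC replicate 1. Libraries whose omission ended a call were also CAC 5 and NCAC 3 for Cacna1e (adjusted p from 0.0575 to 0.103 over the 3), and CAC 3, NCAC 2 and NCAC 5 for Cacna1a (0.0564 to 0.0837). For Kcnn3 they were CAC 3 and 5 and NCAC 2, 3 and 5 (0.0558 to 0.116), and for Kcna6 CAC 2 and 5 and NCAC 2, 3 and 5 (0.0678 to 0.189). Kcnip4 was at 0.0941 without CAC replicate 1. Between CAC and NCAC at 2 and 4 weeks 0 members were called (10 and 5 at an unadjusted p under 0.05), beside 0% and 0.00694% of all genes.

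**Figure D4:**
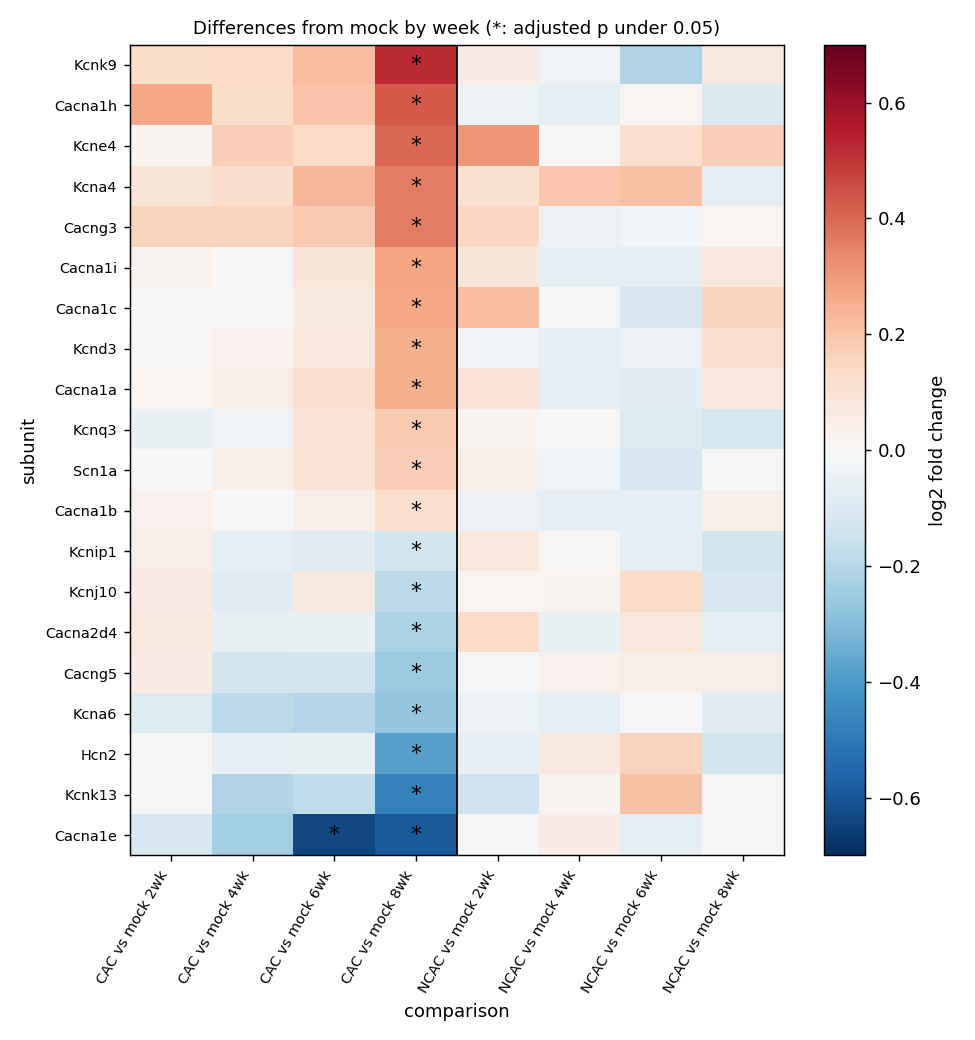
Log2 fold change against mock, as colour, of 20 members called in CAC at 8 weeks (rows), in CAC and NCAC at 2, 4, 6 and 8 weeks (columns); stars mark an adjusted p under 0.05. The stars stand in the CAC column at 8 weeks and, for Cacna1e, at 6 weeks, and the NCAC columns hold none; the rows were chosen by the CAC column at 8 weeks.

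Whether the CAC against mock difference itself changed between 2 and 8 weeks was tested as an interaction. It passed for 1 of 92 members (1.09%), beside 1.55% of all genes (0.958% positive and 0.590% negative). Kcnk9 had a change of 0.40 (adjusted p = 0.0578) and Cacna1a of 0.24 (adjusted p = 0.0712), neither past the threshold. Between mock at 8 and 2 weeks 0 members were called (limma; 6 at an unadjusted p under 0.05), beside 0% of all genes.

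Members that mark cells other than neurons were followed by library. Kcnj13 and Kcne2 are potassium channel genes of the choroid plexus, the epithelium that secretes cerebrospinal fluid. Kcnj13 ranged from 0.810 to 42.4 TPM and Kcne2 from 0 to 23.1 over the 62 libraries. In the library with the least Ttr (4.34 TPM) Kcnj13 stood at 2.73 and Kcne2 at 0.109 TPM, and in the library with the most (6863 TPM) they were at 31.4 and 1.20. The glial Kcnj10 was at 251 and 229 TPM in the same libraries.

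Ttr and the channel genes did not always go together, as 5 libraries picked after their values were seen show. Kcnj13 stood at 39.6 TPM in NCAC replicate 5 at 8 weeks, where Ttr was at 122, and at 39.2 in CAC replicate 4 at 4 weeks, where Ttr was at 161. At 6 weeks it was at 36.6 in CAC replicate 5 with Ttr at 139, and at 26.4 in NCAC replicate 3 with Ttr at 85.0. CAC replicate 5 at 2 weeks had more Ttr than these, 490 TPM, and less Kcnj13, 4.37.

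**Figure D5:**
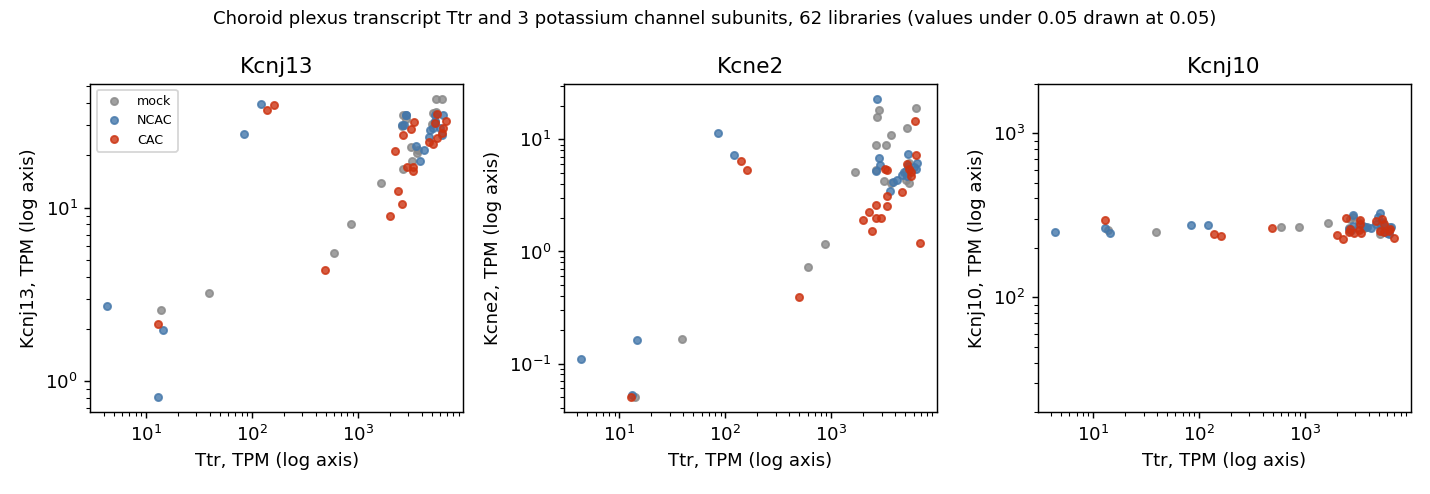
Kcnj13, Kcne2 and Kcnj10 (TPM, log axes) against Ttr (TPM, log axis) in 62 libraries, coloured by treatment, with values under 0.05 drawn at 0.05. Kcnj13 and Kcne2 are low in most libraries with little Ttr, 4 libraries with Ttr between 85.0 and 161 TPM have Kcnj13 above 26, and Kcnj10 stays between 227 and 325 TPM.

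At 8 weeks Kcnj13 averaged 25.7 ± 4.95 TPM in CAC and 31.003 ± 5.18 in mock (log2 fold change -0.27, SE 0.560, adjusted p = 0.780). Kcne2 was at 5.39, 1.99, 14.5, 7.21, 2.61, 1.20 and 2.23 TPM in CAC and at 18.4, 12.7, 15.7, 5.33 and 4.23 in mock. Its log2 fold change of -1.16 had the largest size of any tested member, but its SE was 0.564 and its adjusted p was 0.137, short of the threshold. Without CAC replicate 3 it was -1.44 (adjusted p = 0.0568), and with a choroid plexus covariate -1.11, which passed (adjusted p = 0.0181). Choroid plexus markers gave 0 calls of 12, and their sum ran from 3023 to 8187 TPM in CAC and from 3778 to 6482 in mock, with overlapping ranges. Kcnj8, a pericyte channel that couples metabolism to blood flow, averaged 3.86 ± 0.990 TPM in CAC and 4.12 ± 0.333 in mock (adjusted p = 0.542). Kcnj16, a glial partner of Kcnj10, averaged 34.1 ± 2.84 and 34.3 ± 2.12 TPM (log2 fold change -0.01, adjusted p = 0.927), and its sign turned without CAC replicate 2 or 6 or without mock replicate 1 or 4.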

How the data were processed

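RNA of mouse cerebellum was sequenced in 62 libraries, made with a TruSeq stranded mRNA kit per the labels' protocols. The authors deposited 1 table of TPM values per gene symbol. The genome build was mm10, per the submitters' processing notes. Which aligner, quantifier or annotation was used is not given in the sources used here. Because TPM values sum to 1000000 in each library, depth is lost, no counting interval can be given, and a rise of abundant genes lowers all other values by construction.

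Groups and replicate numbers came from the sample descriptions, since the treatment field names cachectic cells for every sample. Tests covered the 14399 symbols whose mean TPM reached 1, analysed as log2(TPM + 1), a scale that understates changes of genes at low TPM. All 12 groups were fitted together in limma 3.58.1 under R 4.3.3 (lmFit, contrasts, eBayes with trend), without a covariate, which left 50 residual degrees of freedom. In each of 15 comparisons the two-sided p-values were adjusted over all tested symbols (Benjamini-Hochberg, threshold 0.05). The script was tested on simulated data. Fold changes carry standard errors (SE) and levels standard deviations (SD).

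Named genes were up to 30 called members with the smallest adjusted p in CAC against mock at 8 weeks, up to 10 in every other comparison, the 3 highest in each class, 5 members that mark other cells, and up to 6 called genes each of the partner and pump lists. Cacna1g, Hcn4, Kcna1, Kcna2, Kcna5, Kcnmb1, Kcnv2, Kcnk3 and the 4 genes listed at 0 in most libraries fell outside this rule and were named after their values were seen. Some genes that this rule names are not reported here and are left out of the plots, while counts and sums include them. The members and lists were chosen with earlier results of these data known. Gene positions and overlaps came from GENCODE M21, which matched all 135 members. Alternatives were, on the scale, median-of-ratios and quantile scaling and removal of mitochondrially encoded genes; on low values, a pseudocount of 0.1, the filter dropped or raised to 5 TPM; and on the fit, a replicate block, a choroid plexus covariate, sample weights, the compared groups alone and each replicate left out in turn.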

Additional observations from a re-analysis of the deposited data

Results flagged for a closer look

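Cacna1e in CAC replicate 3 at 8 weeks, at 44.3 TPM, stood far above the other libraries of its group, of which the next highest had 27.3. Cacna1e in NCAC replicate 3 at 8 weeks, at 23.7 TPM, stood far below its group, of which the next lowest had 41.5. In 63 groups examined (21 members in 3 groups at 8 weeks) these were the 2 such libraries, and chance alone marks about 1 in 20 groups.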

How the results depend on the processing

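The count of members called in CAC against mock at 8 weeks was 21 and stayed within 1.5 times that in every alternative fit except the replicate block, with 12 (7 up and 5 down, all among the 21), and lay between 15 and 24 with 1 library left out. At 6 weeks the 2 calls became 4 with sample weights, 0 in the compared groups alone and 0 to 3 with 1 library left out. Against NCAC at 8 weeks the 19 calls became 8 under the replicate block (all among the 19) and 9 in the compared groups alone, and 13 to 23 with 1 library left out. The 1 call for the change from 2 to 8 weeks became 2 without a filter, 6 with sample weights, 0 in the compared groups alone, 0 under the replicate block and 0 to 5 with 1 library left out. Replicates 6 and 7 exist only in CAC at 8 weeks. The replicate block therefore gives each of those libraries a term of its own, and they no longer count towards the CAC mean at 8 weeks. The cause of these moves was not tested. In CAC against mock at 8 weeks the correlations of same-numbered libraries ran from -0.155 to 0.0755, 0 of 5 over 0.1. There, 0 of 5 libraries correlated best with its own number. In no comparison did all 5 exceed 0.1, but 4 of 5 did in CAC against NCAC at 2 weeks (up to 0.396). In NCAC against mock at 8 weeks 3 of 5 libraries correlated best with their own number. Whether the replicate numbers mark libraries handled together was not tested. Among all genes the block moved the calls at 8 weeks against mock from 2990 to 1921 and against NCAC from 1695 to 802, and those for the change from 223 to 34. The compared groups alone gave 1648, 685 and 46, and 0 at 6 weeks against 248, with fewer samples in the fit. Sample weights gave 629 at 6 weeks, 2630 against NCAC and 722 for the change, and no filter gave 92 for the change. With 1 library left out, calls over all genes ran from 2120 to 3521 at 8 weeks against mock and from 1101 to 2304 against NCAC. They ran from 20 to 527 at 6 weeks and from 51 to 669 for the change. The share of calls that were higher, 65.9% against NCAC at 8 weeks, 81.9% at 6 weeks and 61.9% for the change, was 48.9%, 57.6% and 52.0% by median-of-ratios scaling, 45.7%, 48.0% and 47.7% once quantile normalized, and 40.8%, 59.8% and 40.9% without mitochondrially encoded genes. Reversals touched only uncalled genes at 8 weeks against mock. Cacng7 was at -0.0068 without mitochondrially encoded genes. Cacnb4 was at -0.0189 by median-of-ratios scaling, -0.0115 once quantile normalized, -0.0296 without mitochondrially encoded genes and -0.0178 under the replicate block, and ran from -0.0203 to 0.0304 with 1 library left out, below 0 without CAC replicates 5 and 7 and mock replicates 1 and 5, each in turn. Kcnj16 ran from -0.0388 to 0.0210 with 1 library left out, above 0 without CAC replicates 2 and 6 and mock replicates 1 and 4, each in turn. No scaling moved the median of all genes by over 0.1 (log2), but that limit is wide beside the medians themselves. In CAC against mock at 8 weeks the median was 0.0210 as reported. It was -0.0018 by median-of-ratios scaling, -0.0043 once quantile normalized and -0.0117 without mitochondrially encoded genes. Depth is unknown, so small differences of low genes carry an error that cannot be split into counting and biology.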
